A study of Rattus norvegicus with 9 samples.

Results

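Muscle cells keep a store of oxygen and of high-energy phosphate beside the mitochondria, and the genes described here encode that store and the muscle forms of the enzyme that consumes the oxygen. The set comprises 9 genes chosen by symbol: the oxygen-binding protein myoglobin (Mb), the creatine kinases Ckm, Ckb and Ckmt2, the creatine transporter Slc6a8, the adenylate kinase Ak1, and the cytochrome c oxidase subunits Cox6a2, Cox7a1 and Cox8b. Of these 9 genes, 8 matched a row by symbol among the 14607 genes listed in at least 1 library, and all 8 passed the filter on low counts that left 11761 genes for testing. Cox7a1 was not analysed here. The genes were chosen with the difference between lenti-TCF7L2 and lenti-NC cells already known, so their values in that comparison are a description and carry no test.

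Neonatal rat cardiomyocytes were isolated from the hearts of SD rats 1 to 2 days old, wild type in all groups, and put in culture as primary cells. They were infected for 16 h with a lentivirus and kept for a further 48 h in medium with fetal bovine serum (10%) and antibiotics (1%). The virus was lenti-NC, a vector control, lenti-TCF7L2, meant to overexpress the transcription factor TCF7L2, or lenti-shTCF7L2, meant to knock it down by a short hairpin RNA. Each group had 3 libraries of oligo(dT)-selected RNA, numbered replicates 1 to 3, and no uninfected cells are among the samples. The labels give neither the species of the TCF7L2 insert nor the promoter of the vectors, and do not say whether replicates were separate cultures, so p-values measure only the spread between these libraries.

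In working muscle, creatine kinase transfers phosphate between ATP and creatine: a mitochondrial form charges creatine where ATP is made, and cytosolic forms recharge ATP where it is used. Myoglobin, a heme protein, binds oxygen in the cytoplasm and eases its passage to mitochondria. Cytochrome c oxidase, the last complex of the respiratory chain, holds several nuclear-encoded subunits that exist in a broadly expressed form and in a form of heart and skeletal muscle, and the muscle forms in part replace the broad ones as the heart matures.

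The libraries held 15085922 to 16478295 expected counts. Tcf7l2 itself stood at 595, 540 and 510 expected counts in the lenti-NC libraries, at 2251, 3240 and 1434 in the lenti-TCF7L2 libraries and at 388, 465 and 391 in the lenti-shTCF7L2 libraries. In CPM (counts scaled to a common library size by TMM), Tcf7l2 rose from 36.8 ± 2.99 (SD, n = 3) to 144.5 ± 60.1 under lenti-TCF7L2, a log2 difference of 1.97 (SE 0.27), with an adjusted p of 8.46e-04 by edgeR's quasi-likelihood test with Benjamini-Hochberg adjustment over all genes tested. Under lenti-shTCF7L2 it stood at 27.3 ± 2.62 CPM, below every control library, and the log2 difference of -0.43 (SE 0.27) did not pass at 0.05 (adjusted p 0.511 by edgeR). Whether it passed depended on the fit. Over other settings the log2 difference was -0.44 to -0.36, with adjusted p of 1.82e-04 to 0.637 (edgeR, DESeq2 or limma-trend). With 1 library left out it was -0.52 to -0.37, with adjusted p of 0.0285 to 0.77 by edgeR. Replicate 3 of lenti-TCF7L2, which had the lowest Tcf7l2 of its group, stood apart by gene length. In it, the 1093 tested genes of up to 1000 bases were at a median log2 of 0.487 above the control mean and the 187 genes over 8000 bases at -0.982, against 0.143 and -0.332 in replicate 1 and -0.068 and -0.007 in replicate 2. Cox6a2 (489 bases) and Cox8b (332 bases) are among the short genes, so values without that library are given where they change a result.

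The sequences just upstream of 5 of the genes are shown: Mb, Ckm, Cox6a2 and Cox8b, which were among the genes low in lenti-TCF7L2 cells, and Ckb, which was not. Those of Ckmt2 and Slc6a8, also low there, were searched but are not printed. Each is the 250 bases before the start of the RefSeq gene in assembly GRCr8, written 5′ to 3′ on the gene's strand, and 7 of the 8 genes had an entry. Mb lies at chr7:110647743-110647992 on the minus strand, Ckm at chr1:88189211-88189460 on the plus strand, Cox6a2 at chr1:192219717-192219966 on the minus strand, Cox8b at chr1:205408274-205408523 on the minus strand and Ckb at chr6:136553465-136553714 on the minus strand. Capitals mark matches to the MEF2 consensus.
Mb: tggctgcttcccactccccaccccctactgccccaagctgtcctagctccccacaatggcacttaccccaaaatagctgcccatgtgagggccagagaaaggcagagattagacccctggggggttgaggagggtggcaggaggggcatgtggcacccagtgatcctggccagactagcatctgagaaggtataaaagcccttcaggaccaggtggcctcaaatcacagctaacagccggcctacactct
Ckm: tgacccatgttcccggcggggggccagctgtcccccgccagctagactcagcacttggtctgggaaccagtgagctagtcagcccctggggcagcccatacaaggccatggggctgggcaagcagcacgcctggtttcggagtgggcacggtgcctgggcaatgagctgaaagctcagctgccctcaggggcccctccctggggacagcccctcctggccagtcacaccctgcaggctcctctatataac
Cox6a2: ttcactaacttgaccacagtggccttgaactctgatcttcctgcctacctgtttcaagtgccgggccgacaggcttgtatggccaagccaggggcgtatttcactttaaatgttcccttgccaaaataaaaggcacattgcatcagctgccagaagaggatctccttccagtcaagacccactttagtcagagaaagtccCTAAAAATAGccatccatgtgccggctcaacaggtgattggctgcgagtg
Cox8b: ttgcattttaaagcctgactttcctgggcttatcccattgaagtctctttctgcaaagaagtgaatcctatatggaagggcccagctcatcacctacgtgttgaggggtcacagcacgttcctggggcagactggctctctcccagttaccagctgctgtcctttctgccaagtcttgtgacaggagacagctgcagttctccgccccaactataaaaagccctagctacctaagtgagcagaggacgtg
Ckb: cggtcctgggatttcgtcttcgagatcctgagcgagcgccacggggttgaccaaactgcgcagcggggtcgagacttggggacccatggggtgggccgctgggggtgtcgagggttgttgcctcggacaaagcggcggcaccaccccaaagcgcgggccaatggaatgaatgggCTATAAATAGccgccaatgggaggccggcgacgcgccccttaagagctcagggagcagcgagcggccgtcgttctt
Both strands were searched for 5 motifs of muscle, mitochondrial and Wnt-responsive factors. The E-box CANNTG, bound by muscle basic helix-loop-helix factors among others, was found in 6 of the 7 windows, all but that of Ckb, and in 65.5% of all 33469 RefSeq windows of the same length. The MEF2 consensus was found in 2, at -76 to -67 from the start of Ckb (CTATAAATAG) and at -50 to -41 from the start of Cox6a2 (CTAAAAATAG), against 2.96% of all windows. The TCF/LEF motif, CTTTG followed by any pair of A or T, was in none of the 7 windows and in 14.9% of all. The estrogen-related receptor core AAGGTCA and the SRF CArG box were also in none of the 7, against 3.99% and 1.5% of all windows.

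In control cells the genes spanned a wide range of abundance per length. Cox6a2 had the highest mean, 2028 ± 82.3 FPKM (fragments scaled by gene length and library depth, SD, n = 3), which ranked it 19 of the 11761 genes tested. Cox8b (123 ± 21.1 FPKM), Mb (119 ± 10.8 FPKM) and Ckm (107 ± 2.22 FPKM) came next, and Cox8b overlapped both of the others between libraries. Ckb (88.9 ± 5.09 FPKM) and Ak1 (87.0 ± 2.53 FPKM) overlapped each other and lay below Ckm in every library. Slc6a8 stood at 31.0 ± 1.58 FPKM and Ckmt2 at 4.52 ± 0.215 FPKM, which ranked it 8550 of 11761, so that the mitochondrial creatine kinase of muscle was the scarcest transcript of the set.

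**Figure D1:**
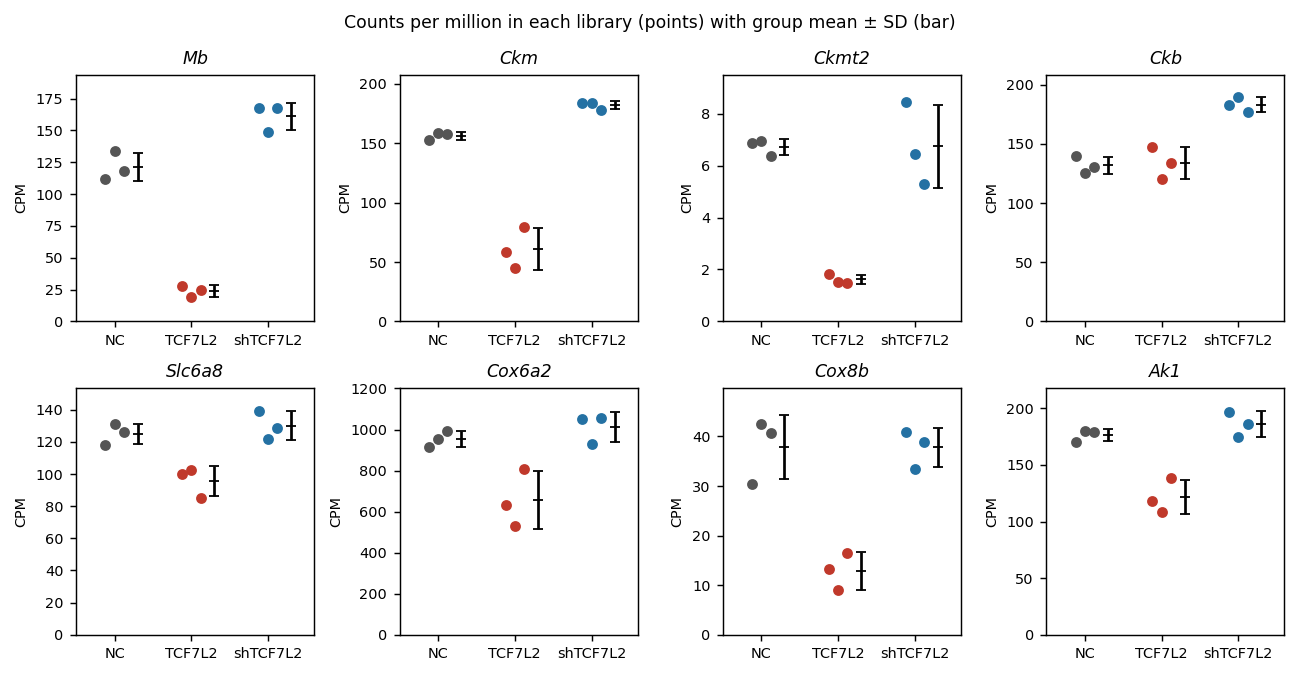
CPM of the 8 genes in each library (points), by group (NC, TCF7L2 and shTCF7L2 virus), with the group mean and SD as a tick and whisker on axes that start at 0. In 7 of the 8 panels every lenti-TCF7L2 point lies below every control point; in the Ckb panel the lenti-shTCF7L2 points are the highest.

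In lenti-TCF7L2 cells, 7 of the 8 genes were lower than in lenti-NC cells and Ckb was not. The steepest differences were those of Mb, Ckmt2, Cox8b and Ckm, and the shallowest were those of Cox6a2, Ak1 and Slc6a8. In the fit across all genes, 7 of the 8 were called lower and 0 higher at an adjusted p under 0.05 by edgeR, where 13.8% of all tested genes were called lower and 18.0% higher. DESeq2 also called 7 lower and 0 higher, and in edgeR 0 were higher at an unadjusted p under 0.05, where 24.8% of all genes were. In 7 of the 8 every lenti-TCF7L2 library lay below every control, which held for 22.0% of all tested genes. The median log2 difference was -0.95 over the 8 genes and 0.03 over all genes tested. These counts follow from how the genes were chosen. In bulk RNA, fewer cells of a type and less RNA per cell cannot be told apart.

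Mb, the oxygen store, had the steepest difference of the set. Control replicates 1 to 3 held 1668, 1984 and 1763 expected counts of Mb. The corresponding counts were 448, 301 and 416 after infection with lenti-TCF7L2 and 2535, 2279 and 2523 after infection with lenti-shTCF7L2. The 3 groups did not overlap, with lenti-TCF7L2 lowest and lenti-shTCF7L2 highest. Group means were 121 ± 11.1, 24.1 ± 4.60 and 161 ± 10.8 CPM (SD, n = 3). The log2 difference of lenti-TCF7L2 from lenti-NC was -2.33 (SE 0.14).

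Ckm, the cytosolic creatine kinase of muscle, which is also bound at the sarcomere, stood at 152, 159 and 158 CPM in the controls and at 58.6, 44.6 and 79.5 CPM in the lenti-TCF7L2 libraries. No lenti-TCF7L2 library reached any control, and replicate 3 was the nearest to them. The log2 difference was -1.36 (SE 0.17). Ckmt2, the mitochondrial form of muscle, rested on few counts: 102, 103 and 95 in the controls against 29, 24 and 25 in the lenti-TCF7L2 libraries. All 3 lenti-TCF7L2 libraries were close together and far under the controls, with a log2 difference of -2.05 (SE 0.20).

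Ckb, the cytosolic form known from brain and other tissues and from the immature heart, went with neither of them. Its levels were 140, 125 and 130 CPM in the controls and 148, 120 and 134 CPM in the lenti-TCF7L2 libraries, and the ranges overlapped. The log2 difference was 0.02 (SE 0.09, 95% confidence interval -0.17 to 0.21), and its sign changed to -0.06 when a trend with gene length was removed.

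Slc6a8 carries creatine into the cell, since heart muscle takes up creatine made elsewhere. It stood at 118, 131 and 126 CPM in the controls and at 100, 102 and 85.0 CPM in the lenti-TCF7L2 libraries. The groups did not overlap, but the difference was the smallest of the 7, at a log2 of -0.38 (SE 0.09). With 3910 bases it is the longest gene of the set, its lowest library was replicate 3, and the log2 difference was -0.21 with the length trend removed. Slc6a8 was no longer called lower with that trend removed or without lenti-NC replicate 2.

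Ak1, the cytosolic adenylate kinase, which turns a pair of ADP molecules into ATP and AMP, stood at 171, 180 and 179 CPM in the controls and at 118, 109 and 138 CPM in the lenti-TCF7L2 libraries. The groups did not overlap, and the log2 difference was -0.54 (SE 0.09). When 1 library was left out it ranged from -0.66 to -0.47.

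Cox6a2, the heart and muscle form of subunit 6A, was by far the most abundant transcript of the set in all groups. Its expected counts were 13587, 14150 and 14822 in the controls and 10027, 8343 and 13493 in the lenti-TCF7L2 libraries. Replicate 3 of lenti-TCF7L2 came close to the controls in raw counts, and in CPM the groups did not overlap, at 914, 953 and 991 against 632, 530 and 806. The log2 difference was -0.54 (SE 0.14), with a range of -0.73 (without replicate 3) to -0.41 (without replicate 2) when 1 library was left out. Cox6a2 was no longer called lower with only the 6 libraries compared in the fit, or without lenti-NC replicate 2 or 3 or lenti-TCF7L2 replicate 1. Cox8b, the muscle form of subunit 8, had 452, 630 and 609 expected counts in the controls and 211, 141 and 277 in the lenti-TCF7L2 libraries. Its log2 difference of -1.55 (SE 0.22) was the steeper of the pair, with a range of -1.78 to -1.35 when 1 library was left out.

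**Figure D2:**
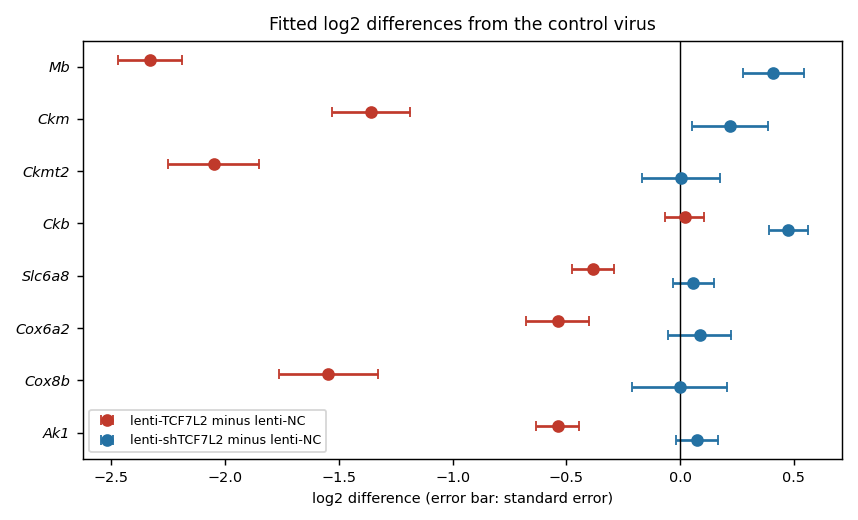
Fitted log2 differences from lenti-NC for each gene, with standard errors as whiskers, for lenti-TCF7L2 and for lenti-shTCF7L2. The lenti-TCF7L2 values run from -2.33 for Mb to 0.02 for Ckb, and the lenti-shTCF7L2 values from -0.002 for Cox8b to 0.48 for Ckb.

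In lenti-shTCF7L2 cells only Ckb passed the test, and it rose. Of the 8 genes, edgeR called 1 higher and 0 lower at an adjusted p under 0.05, where 1.32% of all tested genes were called higher and 2.32% lower. DESeq2 gave the same counts, and at an unadjusted p under 0.05 in edgeR 2 genes were higher, Mb and Ckb, and 0 were lower, against 7.20% and 8.84% of all tested genes. The median log2 difference was 0.08 over the 8 genes and 0.01 over all genes tested. For 3 of the 8 genes, Mb, Ckm and Ckb, every lenti-shTCF7L2 library lay above every control, which held for 19.9% of all tested genes. Whether the choice of the genes also drew on this comparison is not known.

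Ckb stood at 183, 190 and 177 CPM in the lenti-shTCF7L2 libraries, above the controls at 140, 125 and 130 CPM. The log2 difference was 0.48 (SE 0.09, 95% confidence interval 0.28 to 0.67, adjusted p 0.0188 by edgeR, n = 3 against 3). The size held when libraries were left out, but the call did not: without any 1 of the 6 libraries compared, the log2 difference was 0.44 to 0.52 and the adjusted p by edgeR 0.0513 to 0.11. The adjusted p was 0.0513, 0.104 and 0.0972 without lenti-NC replicate 1, 2 or 3, and 0.084, 0.11 and 0.0709 without lenti-shTCF7L2 replicate 1, 2 or 3. Other settings gave 8.56e-08 to 0.0393.

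Mb stood at 167, 149 and 167 CPM in the lenti-shTCF7L2 libraries and at 112, 134 and 118 CPM in the controls. The log2 difference of 0.41 (SE 0.13, 95% confidence interval 0.11 to 0.71) did not pass after adjustment (adjusted p 0.150 by edgeR). With only the 6 libraries of this comparison in the fit, which leaves out the wider spread of the lenti-TCF7L2 group, it passed at 1.25e-05. It also passed without lenti-TCF7L2 replicate 2 (adjusted p 0.0333 by edgeR) or replicate 3 (0.0166). Over the settings other than leaving out 1 library, with that 6-library fit among them, the adjusted p was 1.25e-05 to 0.232 (edgeR, DESeq2 or limma-trend). Ckm stood at 184, 184 and 178 CPM, with a log2 difference of 0.22 (SE 0.17, 95% confidence interval -0.16 to 0.60, adjusted p 0.633 by edgeR), and passed in the fit of 6 libraries (3.83e-04).

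The remaining 5 genes did not pass by edgeR, and their intervals bound the difference on either side. The log2 difference was 0.09 (95% confidence interval -0.23 to 0.40) for Cox6a2, 0.07 (-0.14 to 0.29) for Ak1 and 0.06 (-0.15 to 0.26) for Slc6a8. It was 0.004 (-0.38 to 0.39) for Ckmt2 and -0.002 (-0.47 to 0.47) for Cox8b. The last pair are among the genes with the steepest differences under lenti-TCF7L2. In the lenti-shTCF7L2 libraries Ckmt2 had 80 to 128 expected counts and Cox8b 513 to 621.

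Set directly against each other, the 2 treated groups differed most in Mb and Ckmt2, followed by Ckm and Cox8b. From lenti-shTCF7L2 to lenti-TCF7L2 the log2 differences were -2.74 for Mb, -2.06 for Ckmt2, -1.58 for Ckm and -1.54 for Cox8b. They were -0.63 for Cox6a2, -0.61 for Ak1, -0.46 for Ckb and -0.44 for Slc6a8. All 8 genes had every lenti-TCF7L2 library below every lenti-shTCF7L2 library, which held for 23.2% of all tested genes. This comparison uses the same lenti-TCF7L2 libraries that entered the choice of the genes.

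Per-length values allow each muscle form to be set against its broad counterpart. Cox6a2 made up 68.6, 69.0 and 69.5% of the summed FPKM of Cox6a2 and Cox6a1 in the controls, 62.7, 64.2 and 62.0% in the lenti-TCF7L2 libraries and 72.8, 71.6 and 73.2% in the lenti-shTCF7L2 libraries. The 3 groups did not overlap, and replicate 3 of lenti-TCF7L2 lay with the other two. Both genes are short, and a share within a library does not depend on its depth. The mean shares were 69.0 ± 0.409, 63.0 ± 1.16 and 72.5 ± 0.825% (SD, n = 3).

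Cox8b was the minor form of subunit 8 in these neonatal cells. It made up 12.3, 15.2 and 14.1% of the summed FPKM of Cox8b and Cox8a in the controls and 7.18, 6.02 and 7.09% in the lenti-TCF7L2 libraries, without overlap. With lenti-shTCF7L2 the share was 15.9, 14.4 and 14.7%, which overlapped the controls. Ckm made up 54.7 ± 1.91% of the summed FPKM of Ckm and Ckb in the controls, 31.3 ± 5.60% with lenti-TCF7L2 and 50.3 ± 0.548% with lenti-shTCF7L2 (SD, n = 3). The lenti-TCF7L2 libraries stood at Ckm shares of 28.8, 27.4 and 37.7%, with Ckb the larger part in each. Against the control shares of 52.6 to 56.3%, the lenti-shTCF7L2 shares of 50.6, 49.6 and 50.6% were lower without overlap and held nearly equal parts of each gene. No test was run on these shares.

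**Figure D3:**
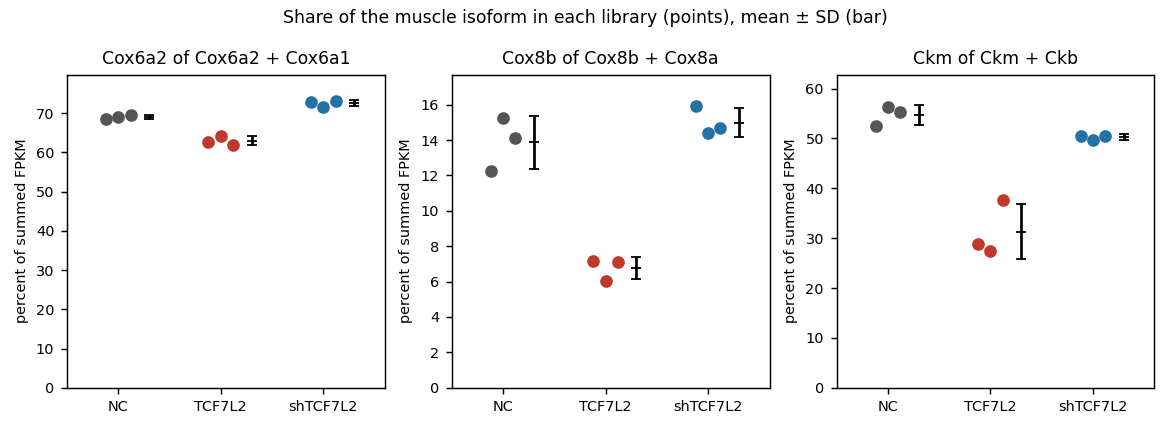
Share of the muscle form in the summed FPKM of each pair, in percent, for each library (points) with the group mean and SD (tick and whisker), on axes that start at 0. The lenti-TCF7L2 points are lowest in all 3 pairs, at 62.0 to 64.2% for Cox6a2, 6.02 to 7.18% for Cox8b and 27.4 to 37.7% for Ckm.

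The broad counterparts Cox6a1, Cox7a2, Cox8a and Ckmt1b were measured beside them. Under lenti-TCF7L2, 0 of the 4 were called by edgeR, 3 were lower at an unadjusted p under 0.05 and DESeq2 called 1 lower, Cox8a. Their log2 differences were -0.14 for Cox6a1, -0.47 for Cox7a2, -0.41 for Cox8a and -0.38 for Ckmt1b, with adjusted p of 0.515, 0.0942, 0.0570 and 0.0658 by edgeR. This count depends on replicate 3 of lenti-TCF7L2 and on gene length: with the length trend removed and all libraries kept, all 4 were called lower. Without replicate 3 all 4 were called lower, with log2 differences of -0.37 for Cox6a1, -0.77 for Cox7a2, -0.60 for Cox8a and -0.50 for Ckmt1b, and adjusted p by edgeR of 0.00325, 3.99e-05, 1.16e-04 and 0.00931. Over all genes tested, 1718 of 11761 were called lower with the length trend removed, and 2541 of 11820 without replicate 3. The Cox7a2 counts show how that library differs: 2585 and 1949 in replicates 1 and 2 and 3944 in replicate 3, against 3291, 3691 and 3787 in the controls. Under lenti-shTCF7L2, 0 of the 4 were called by edgeR or DESeq2 and 0 passed at an unadjusted p under 0.05.

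Among 13 other nuclear-encoded subunits of the oxidase, which include Cox6a1, Cox7a2 and Cox8a, 2 rose and 1 fell under lenti-TCF7L2 by edgeR, with a median log2 difference of -0.32. The pair that rose are isoforms of restricted expression: Cox6b2, known from testis, from 5.95 ± 1.25 to 13.9 ± 5.98 CPM (log2 1.22, adjusted p 0.0132 by edgeR), and Cox4i2, known from lung, from 28.1 ± 2.51 to 53.0 ± 21.7 CPM (log2 0.92, adjusted p 0.0194). Their calls were lost without lenti-NC replicate 1 (adjusted p 0.057 and 0.0721), and that of Cox4i2 also without lenti-NC replicate 3 (0.0674) or with only the 6 libraries compared (0.0636). Cox7b fell to 134 ± 39.3 CPM (log2 -0.57, adjusted p 0.0374 by edgeR), a call that was lost (0.0593 to 0.11) without lenti-TCF7L2 replicate 1 or any 1 of the other groups' 6 libraries, and with only the 6 libraries compared (0.0996). Without lenti-TCF7L2 replicate 3, by contrast, 10 of the 13 were called lower and 2 higher, with a median of -0.61, and with the length trend removed in all libraries the counts were also 10 and 2. Of all 11820 genes tested without that replicate, 2541 were called lower and 2502 higher. With the length trend removed, 1718 of all 11761 were called lower and 2575 higher. With the 3 libraries as deposited, the lower level of the muscle forms was thus measured beside broad forms whose own call depends on 1 library and on the treatment of gene length. Under lenti-shTCF7L2, 0 of the 13 were called by edgeR or DESeq2, and 0 passed at an unadjusted p under 0.05. With the length trend removed and lenti-TCF7L2 replicate 3 left out, 4 of the 13 and 2 of the 4 counterparts were called lower under lenti-shTCF7L2. In that setting 1372 of all 11820 genes tested were called lower.

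**Figure D4:**
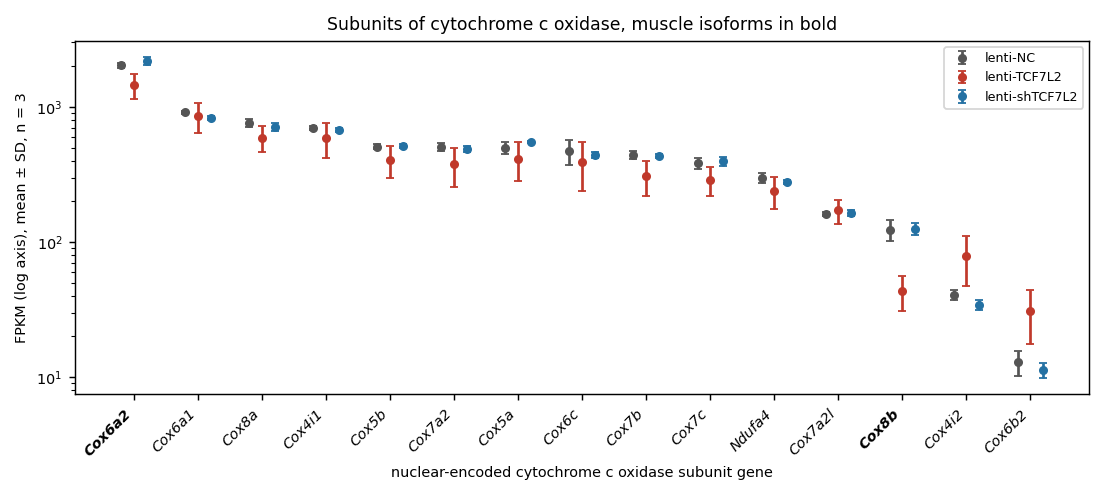
Mean FPKM with SD (n = 3) on a log axis for the nuclear-encoded cytochrome c oxidase subunits, by group, muscle forms in bold. Cox6a2 lies at 2028 FPKM in the controls, above its counterpart Cox6a1, while Cox8b at 123 FPKM lies below its counterpart Cox8a.

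Factors that assemble the oxidase numbered 17 tested genes, of which 5 fell and 0 rose under lenti-TCF7L2 by edgeR (0 rose by DESeq2 and 0 at an unadjusted p under 0.05), with a median log2 difference of -0.08. Coa5 had the smallest adjusted p, falling from 205 ± 0.924 to 113 ± 1.27 CPM (log2 -0.85, adjusted p 3.02e-05 by edgeR). Cox11, which inserts copper, fell by 0.95 on the log2 scale (adjusted p 0.00198), and Lrpprc, which keeps mitochondrial messenger RNAs stable, fell by 0.55 (adjusted p 5.84e-04). The call of Lrpprc was lost with the length trend removed (log2 -0.30, adjusted p 0.169 by edgeR). Under lenti-shTCF7L2 1 of the 17 fell, Coa5, at 168 ± 3.42 CPM (log2 -0.28, adjusted p 0.0235 by edgeR), and 0 rose. The size of that difference was -0.27 to -0.29 without any 1 of the 6 libraries compared, with adjusted p of 0.0974 to 0.146. It was also lost with the length trend removed (0.259). Without lenti-TCF7L2 replicate 3, 8 of the 17 fell under lenti-TCF7L2, and 3 fell and 1 rose under lenti-shTCF7L2. Of all 11820 genes tested without it, 2541 fell under lenti-TCF7L2, and 1286 fell and 770 rose under lenti-shTCF7L2.

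Creatine synthesis, the other creatine kinases and the adenine nucleotide enzymes comprised 10 tested genes. Under lenti-TCF7L2 1 fell and 0 rose by edgeR (0 rose by DESeq2 and 0 at an unadjusted p under 0.05), and the median log2 difference was -0.10. The gene that fell was Ampd3, an AMP deaminase, from 59.7 ± 4.40 to 35.3 ± 6.34 CPM (log2 -0.76, adjusted p 0.00323 by edgeR). Without lenti-TCF7L2 replicate 3, 3 fell and 1 rose there and 2 rose in the other comparison. Of all 11820 genes tested without that library, 2541 fell and 2502 rose under lenti-TCF7L2, and 770 rose under lenti-shTCF7L2. Under lenti-shTCF7L2 1 rose and 0 fell (0 fell by DESeq2 and 0 at an unadjusted p under 0.05). This was Gatm, the enzyme of the opening step of creatine synthesis, which went from 17.7 ± 0.900 to 27.1 ± 1.73 CPM (log2 0.62, adjusted p 0.0131 by edgeR). Its call was lost without lenti-NC replicate 2 or 3 or lenti-shTCF7L2 replicate 2 or 3 (adjusted p 0.0736 to 0.0786), at log2 differences of 0.58 to 0.61.

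Heme is the oxygen-binding group of myoglobin, and of 14 tested genes for other globins and for heme synthesis and breakdown, 2 rose and 3 fell under lenti-TCF7L2 by edgeR. Alas1, the rate-limiting enzyme of heme synthesis outside red cells, fell from 155 ± 7.03 to 87.1 ± 6.47 CPM (log2 -0.83, adjusted p 1.11e-04). Hmox1, which breaks heme down, rose from 103 ± 13.4 to 182 ± 14.9 CPM (log2 0.82, adjusted p 0.00113 by edgeR). Cygb, cytoglobin, a globin known from fibroblasts, passed in both comparisons. It rose from 67.8 ± 4.96 to 127 ± 17.0 CPM under lenti-TCF7L2 (log2 0.91, adjusted p 3.54e-04 by edgeR) and fell to 40.5 ± 1.36 CPM under lenti-shTCF7L2 (log2 -0.74, adjusted p 0.00736). Without lenti-shTCF7L2 replicate 2 the adjusted p of the latter was 0.056. Under lenti-shTCF7L2 2 of the 14 fell and 0 rose (0 rose by DESeq2 and 0 at an unadjusted p under 0.05). The other was Fech, which inserts iron into heme, at 54.2 ± 3.03 and 41.8 ± 1.01 CPM (log2 -0.37, adjusted p 0.0286 by edgeR). The call of Fech was lost (0.0538 to 0.151) without any 1 of the 6 libraries compared or lenti-TCF7L2 replicate 1.

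Markers of the cells in the culture moved with the same comparison. Of 14 cardiomyocyte markers tested, 12 fell and 1 rose under lenti-TCF7L2 by edgeR, and their summed level was 60190 to 61220 CPM in the controls, 26890 to 34020 with lenti-TCF7L2 and 55630 to 56720 with lenti-shTCF7L2. The most abundant were Actc1, cardiac actin (log2 -0.92), and Nppa, atrial natriuretic peptide (log2 -1.05). Their median log2 difference of -0.92 stood beside -0.95 for the 8 genes. The spreads differed: the markers ran from -1.62 to 0.97 and the 8 genes from -2.33 to 0.02. Mb (-2.33) and Ckmt2 (-2.05) lay below every marker. Library by library, the median against the control mean was -0.99, -1.06 and -0.74 for the markers and -1.003, -1.33 and -0.76 for the 8 genes, with replicate 3 the nearest to the controls in both. Under lenti-shTCF7L2, 0 of the 14 were called by edgeR, with a median of -0.08, 1 was lower at an unadjusted p under 0.05, and DESeq2 called 1 lower. Without lenti-TCF7L2 replicate 3, edgeR called 3 lower and 0 higher there, where 1286 of all 11820 genes tested were lower and 770 higher. With the length trend also removed, 4 were lower and 1 higher, against 1372 and 1210 of all 11820. The part of these markers in the differences of the 8 genes was not tested.

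Markers of other cell types went the other way or were mixed, except that the median of the 3 erythroid genes tested was also lower (log2 -0.99). Under lenti-TCF7L2, 13 of 14 endothelial markers rose and 0 fell by edgeR (DESeq2 called 1 lower, and 1 was lower at an unadjusted p under 0.05). Their summed level was 542 to 564 CPM in the controls, 836 to 968 with lenti-TCF7L2 and 463 to 473 with lenti-shTCF7L2. Under lenti-shTCF7L2, edgeR called 0 of the 14, 2 were higher and 1 lower at an unadjusted p under 0.05, and DESeq2 called 1 lower. The most abundant were Eng (log2 0.50, adjusted p 0.00170 by edgeR) and Kdr (log2 -0.50, adjusted p 0.0722). Fibroblast markers summed to 34930 to 36080, 37790 to 45310 and 37850 to 39870 CPM in the same order of groups. Of 12 fibroblast markers, 6 rose and 2 fell under lenti-TCF7L2, and 5 fell under lenti-shTCF7L2. Without lenti-TCF7L2 replicate 3, 9 rose and 2 fell under lenti-TCF7L2, and 1 rose and 7 fell under lenti-shTCF7L2. In that setting 1 endothelial marker rose and 1 fell under lenti-shTCF7L2. Of all 11820 genes tested without that library, 2502 rose and 2541 fell under lenti-TCF7L2, and 770 rose and 1286 fell under lenti-shTCF7L2. Col1a1 and Col1a2, the most abundant, did not pass in either comparison (adjusted p 0.0680 and 0.240, then 0.109 and 0.670, by edgeR).

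Smooth muscle and pericyte markers summed to 9944 to 10140 CPM in the controls, 8696 to 9917 with lenti-TCF7L2 and 9543 to 9840 with lenti-shTCF7L2. Of 12, 3 rose and 1 fell under lenti-TCF7L2, the latter Des, desmin, which cardiomyocytes also make, and 1 rose under lenti-shTCF7L2. Acta2 stood at a log2 of -0.24 (adjusted p 0.0823 by edgeR). Macrophage and leukocyte markers summed to 42.1 to 43.6, 74.8 to 84.4 and 47.1 to 49.9 CPM. Of 8 tested, 5 rose under lenti-TCF7L2, Cd14 and Cd68 among them, and 2 rose under lenti-shTCF7L2. Schwann and neural markers summed to 409 to 422, 186 to 343 and 421 to 452 CPM in the same order of groups. They were mixed, with 2 of 7 higher (Tubb3 among them) and 1 lower (Ncam1, the most abundant) under lenti-TCF7L2. Under lenti-shTCF7L2 0 were called by edgeR, by DESeq2 or at an unadjusted p under 0.05. Erythroid markers summed to 327 to 364, 68.0 to 103 and 343 to 362 CPM. Of 3 tested, 1 fell under lenti-TCF7L2, Tfrc, the most abundant, and Epor did not pass. Under lenti-shTCF7L2, 0 of the 3 were called by edgeR or DESeq2 and 0 passed at an unadjusted p under 0.05. Without lenti-TCF7L2 replicate 3, 5 smooth muscle and pericyte markers rose and 3 fell under lenti-TCF7L2, and 2 rose and 1 fell under lenti-shTCF7L2. In that setting 6 of 9 macrophage and leukocyte markers rose under lenti-TCF7L2, and 3 of 8 Schwann and neural markers rose and 1 fell. Of all 11820 genes tested in it, 2502 rose and 2541 fell under lenti-TCF7L2, and 770 and 1286 under lenti-shTCF7L2. None of the listed markers was at 0 in all 9 libraries. The part of these cells in the results was not tested.

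Across the 9 libraries, the 7 genes other than Ckb went up and down together, with Pearson's r of log2 CPM between 0.70 and 0.99 for each pair, while Ckb gave 0.44 to 0.57 with the others. These values are a description: the points share libraries and depth, and the 3 groups make most of the spread. By the same measure, the genes most like Mb among all tested were Casq1, calsequestrin of skeletal muscle (r 0.995), and Hs3st2 (0.995). Those most like Ckm were Myl2, the ventricular myosin light chain (0.996), and Apobec2 (0.995). Ckmt2 was nearest to Asb2 (0.990) and Myh6, the alpha myosin heavy chain (0.986). Cox6a2 was nearest to Tnni3, cardiac troponin I (0.995), and Ldhb, lactate dehydrogenase B (0.994). Cox8b was nearest to Mpc1, a subunit of the mitochondrial pyruvate carrier (0.997), and Art3 (0.994). Ak1 went with Mccc2 and Rala (0.990 each), and Slc6a8 with Cntnap1 (0.981) and Dgkb (0.980). Ckb was nearest to Fam213a (0.983) and Slc7a3, a transporter of cationic amino acids (0.977). Like Ckb, that pair had high values under lenti-shTCF7L2 (log2 0.51 and 1.505) beside small differences under lenti-TCF7L2 (log2 -0.01 and 0.23). This likeness follows from how the pair was picked, by correlation with Ckb over the same libraries.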

How the data were processed

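RNA of 9 libraries (3 lenti-NC, 3 lenti-TCF7L2, 3 lenti-shTCF7L2) was enriched with oligo(dT) beads and read by BGISEQ-500 sequencing, per the labels' protocols. Without giving roles, the submitters' processing notes list RSEM 1.3.1, HISAT2, DESeq2 1.4.5, Bowtie2 and the rn6 build. The authors deposited, per library, expected counts per gene (whole numbers for 84.2 to 84.5% of genes listed) and FPKM with a gene length. Only genes above 0 are listed, and absent ones were set to 0. Reads shared between near-identical genes can be split by estimated counts, and of the 8 genes this touched Slc6a8, whose counts were fractional.

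Expected counts were rounded and tested in R 4.3.3 with edgeR 4.0.16 (filterByExpr, TMM, quasi-likelihood test, group as the only term, all 9 libraries), with Benjamini-Hochberg adjustment over 11761 genes, 2846 being set aside. A difference was called at an adjusted p under 0.05. The procedure was tested on simulated data with the same spread for all genes and libraries, set smaller than that of the real data. The simulation therefore does not show how the procedure performs at the real spread. The simulation did not model the length trend of lenti-TCF7L2 replicate 3. The biological coefficient of variation of the real data was 14.9%. CPM used TMM-scaled totals, FPKM was used only to compare genes, and log2 CPM for correlations used a prior count of 2. Alternatives were DESeq2 1.42.0, limma-trend 3.58.1 on log2(FPKM + pseudocount), other scalings and filters, a replicate block, a trend with gene length, and leaving out libraries.

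The genes and lists were chosen with earlier results of these data known. Named genes are Tcf7l2, the set, its broad counterparts, up to 3 called genes of smallest adjusted p per pathway list and comparison, the 2 most abundant markers per list, and the 2 most correlated genes per member of the set. RefSeq sequences are of GRCr8, a different build from rn6, and no gene coordinate was transferred. A gene of the lists is not reported here.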

Additional observations from a re-analysis of the deposited data

How the results depend on the processing

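The direction of every member of the set other than Ckb under lenti-TCF7L2 held in the 20 alternatives run. With 1 library left out 5 to 7 members were called lower, in the other settings 6 to 7, and 0 were called higher in any. Over all genes tested, 1079 of 11873 to 2638 of 11828 were called lower with 1 library left out, and 1341 to 2865 higher. In the other settings 1056 of 11647 to 2693 of 11820 were called lower, and 1265 to 2816 higher. The member counts follow from how the genes were chosen. The whole table moved more. Called genes under lenti-TCF7L2 numbered 3741, 2321 with only the 6 libraries compared and 2430 to 5503 with 1 library left out, lowest without lenti-NC replicate 1. Under lenti-shTCF7L2 they numbered 428, 651 with DESeq2, 244 with the replicate block, 3294 with 6 libraries, 2582 with the length trend and lenti-TCF7L2 replicate 3 left out, and 88 to 2056 with 1 library left out. Between lenti-TCF7L2 and lenti-shTCF7L2 they numbered 3890, and 5952 with the length trend and replicate 3 left out. Members called higher under lenti-shTCF7L2 numbered 1, but 3 with 6 libraries, 3 with the length trend and replicate 3 left out, and 0 to 2 with 1 library left out. Over all genes tested, those called higher numbered 155 of 11761 in the main fit and 1507 of 11553 with 6 libraries. They numbered 1210 of 11820 with the length trend and replicate 3 left out, and 22 to 770 with 1 library left out. Residual r was -0.067 to 0.151 for same-numbered libraries of different groups (2 of 9 pairs over 0.1) and -0.159 to 0.111 for differently numbered ones. With 3 libraries per group, these values cannot settle whether replicate numbers mark a shared culture. The replicate block left the counts of members called at 7 lower and 1 higher. In it the calls of Coa5 (adjusted p 0.0771 by edgeR) and Fech (0.0878) under lenti-shTCF7L2 were lost.

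Shares by CPM in place of FPKM were 66.3, 60.0 and 70.0% for Cox6a2, 9.41, 4.47 and 10.2% for Cox8b and 54.3, 31.0 and 49.8% for Ckm (lenti-NC, lenti-TCF7L2, lenti-shTCF7L2). Values near 0 changed sign. Ckb under lenti-TCF7L2 was -0.0571 with the length trend, -0.0287 with that and replicate 3 left out, and -0.0662 to 0.0859 with 1 library left out. Ckmt2 under lenti-shTCF7L2 was -0.00532 with RLE scaling, -0.00586 with DESeq2, -0.0138 with the replicate block, -0.00162 with the length trend, -0.00108 with that and replicate 3 left out, and -0.192 to 0.149 with 1 library left out. Cox8b under lenti-shTCF7L2 was 0.0164 with upper-quartile scaling, 0.0386 with limma on log2(FPKM + 1) with or without the filter, 0.039 with log2(FPKM + 0.1), and -0.138 to 0.0878 with 1 library left out. Under lenti-TCF7L2, Cox6a1 was -0.367 to 0.0200 with 1 library left out, above 0 without replicate 2. The cause of these changes was not tested. Depth limits Ckmt2 most, at 24 to 128 counts per library.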

Other observations

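With Ckmt1b, the broad mitochondrial form, added after the values were seen, the 4 creatine kinases can be read as 1 pool. The pool summed to 208 ± 2.59 FPKM in lenti-NC, 144 ± 18.9 FPKM in lenti-TCF7L2 and 265 ± 7.96 FPKM in lenti-shTCF7L2 cells (SD, n = 3). Ckb made up 42.6 ± 1.93% of it in the controls, 65.2 ± 5.30% with lenti-TCF7L2 and 47.7 ± 0.592% with lenti-shTCF7L2. Between the mitochondrial forms, Ckmt2 went from 2.17 ± 0.0969% in the controls to 0.788 ± 0.111% with lenti-TCF7L2, while Ckmt1b stood at 3.70 ± 0.561 and 4.25 ± 0.242%. No test was run on these shares, and the lenti-TCF7L2 values are of the comparison known when the genes were chosen.

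Tfrc, the transferrin receptor, by which cells take up iron, was the most abundant gene of the erythroid list. It fell from 344 ± 18.9 to 88.2 ± 19.6 CPM under lenti-TCF7L2 (log2 -1.96, adjusted p 6.48e-05 by edgeR's quasi-likelihood test with Benjamini-Hochberg adjustment) and stood at 352 ± 9.89 CPM under lenti-shTCF7L2 (log2 0.03, adjusted p 0.963).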
